A study of Dunaliella salina with 12 samples.

Results

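Cells of the green alga Dunaliella salina given H2O2 for 2 h were compared with cells given fresh medium alone. The members are the 3 libraries titled H2O2 and the 3 titled Control, chosen by their titles, 6 of the 12 libraries of the series. All are RNA sequencing libraries of strain 435, labelled as 5 days old and as whole organism, from cultures at 25 °C with 16 h of light at 8000 lx and 8 h of dark. The H2O2 group had 0.4 mM H2O2 in fresh medium with 1.5 M NaCl, and the control group had the same medium without H2O2. Both groups had been spun at 5000 g for 5 min and moved to that medium, so neither is an undisturbed culture. Groups given a further 1.5 M NaCl or 1.5 M sorbitol, with 3 libraries each, enter only as a scale for size and as part of the shared error estimate. Whether libraries with one title stem from independent cultures is not stated in the labels, so every p-value rests on library-to-library spread alone, and that spread may be technical.

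H2O2 is a reactive oxygen species that chloroplasts and mitochondria also make in normal metabolism. Algae break it down with enzymes such as catalase, ascorbate peroxidase and thiol peroxidases, and it also acts as a signal that alters transcription. Dunaliella salina has no rigid cell wall, balances external salt with glycerol, and is known for the carotenoids it accumulates under stress. None of these genes can be pointed to here: the files pair the 82333 assembly IDs with no names, and 0 of them matched the 16683 genes of the reference table of the assembly Dunsal1 v. 2. The results are therefore given by expression level, by number and by rank, with 4 IDs. No sequence belongs to these IDs in the files, and none is shown.

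Levels are in FPKM, which divides the fragments of a gene by its length and by library size, so that genes of different length can be compared. The H2O2 libraries listed 37740, 38002 and 37740 genes above 0, and the control libraries 41098, 41096 and 42673. The groups did not overlap, and the exact two-sided permutation p was 0.10, the smallest that 3 against 3 libraries can give. A low count was not particular to H2O2: sorbitol libraries listed 39566, 37005 and 38098 genes above 0, and NaCl libraries 41109, 42727 and 39367. Relative depth, estimated from the spacing of the lowest values, was 0.928 ± 0.019 (SD, n = 3) in H2O2 libraries and 1.05 ± 0.13 in control libraries, around a mean of 1 over all 12. The part of depth in the number of genes above 0 was not tested. Correlations of log2(FPKM + 1) across the genes tested were 0.948 to 0.959 within H2O2, 0.960 to 0.964 within control and 0.945 to 0.958 between the groups. Library 1 of the H2O2 group stood apart in 7 abundant genes, which are described below.

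Few single genes passed the test. Of 21698 genes tested, H2O2 changed 59 (0.272%), 20 higher (0.0922%) and 39 lower (0.180%), by limma's moderated test with Benjamini-Hochberg adjustment (adjusted p under 0.05) in a fit of all 12 libraries. A gene entered the test where 3 or more of the 6 libraries reached 1 FPKM, and differences are on the log2(FPKM + 1) scale, which understates changes of low genes. By class of mean level over the 6 libraries, the share called was 0.407% under 5 FPKM, 0.179% from 5 to under 20 FPKM, 0.201% from 20 to under 100 FPKM and 0.418% at 100 FPKM or more. The groups did not overlap in any of the 59, as in 19.4% of all genes tested. The calls changed with the libraries fitted. With only the 6 libraries fitted, 3 genes passed (0.0138%), and 1 of the 59 was among them. Without control libraries 1, 2 and 3 the count was 7, 4 and 25, and without H2O2 libraries 1, 2 and 3 it was 28, 27 and 5. Libraries of the other treatments enter only through the error estimate, and they moved the count too. It was 29 without NaCl library 1, 91 without NaCl library 3, and 30, 23 and 25 without sorbitol libraries 1, 2 and 3. Of the 59 genes, 2 passed in each of the 6 fits that left out 1 H2O2 or control library, 1 higher and 1 lower.

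The distribution of p-values showed more than the list of calls. An unadjusted limma p under 0.05 was reached by 2922 genes (13.5%) in the fit of 12 libraries and by 2485 (11.5%) in that of 6. From the p-values of all genes, limma's estimate of the share of changed genes was 20.7% and 19.0% in these fits. Such an estimate does not say which genes changed, and the part of library scaling or depth in it was not tested. Of the 2922 genes, 2080 were higher with H2O2 (9.59% of those tested) and 842 lower (3.88%), but this balance turned with the scaling of the libraries. Median-ratio scaling left 924 genes higher and 1438 lower. Scaling every library to an equal sum gave 2628 higher and 705 lower. The median log2 fold change of all genes was 0.09 as deposited, -0.0048 under median-ratio scaling and 0.12 with equal sums. The estimated share of changed genes was 13.7% and 24.2% under these scalings.

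**Figure D1:**
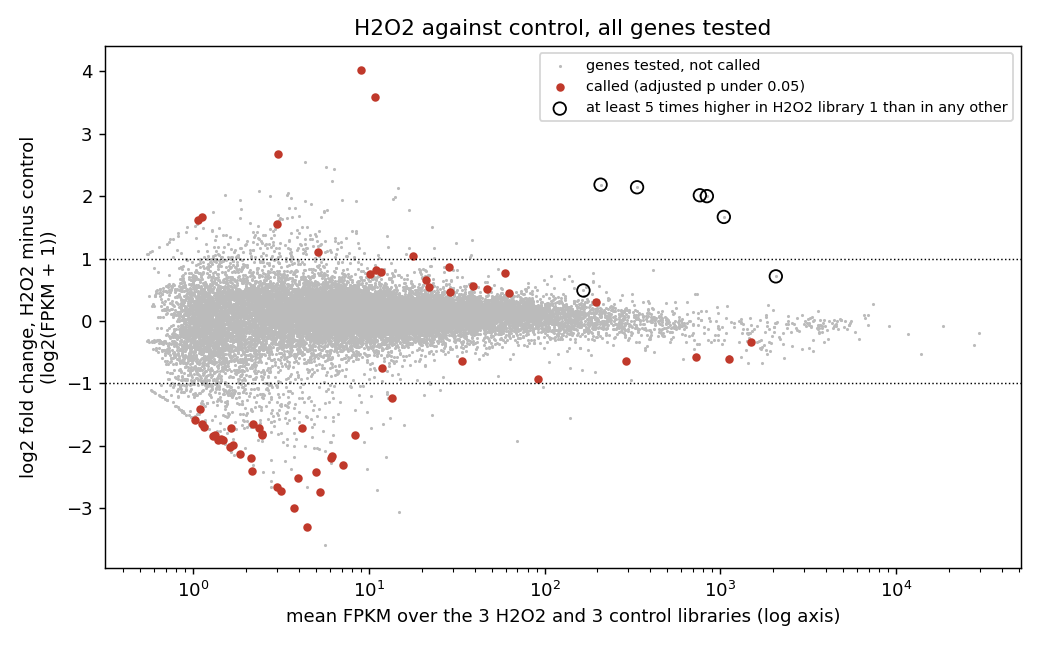
Each point is 1 of the 21698 genes tested, by its mean FPKM over the 3 H2O2 and 3 control libraries (log axis) and its log2 fold change, H2O2 minus control; dotted lines mark a change of 1 log2. The 59 called genes (red) reach beyond 1 log2 only below 20 FPKM, and the rings mark 7 genes that were high in H2O2 library 1.

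Among genes of 20 FPKM or more, 15 of 6182 passed, 9 higher and 6 lower with H2O2, and each by less than 1 log2. The lower gene with the highest level was c30482_g2. It was at 1308, 1312 and 1338 FPKM in H2O2 libraries 1, 2 and 3, against 1725, 1681 and 1578 FPKM in control libraries. The groups did not overlap, and the SD was 16.4 FPKM among the H2O2 libraries and 75.5 FPKM among the control libraries. Its log2 fold change was -0.33 ± 0.06 (SE, limma adjusted p = 0.039), the second smallest change among the 59. The next, c11729_g1, was at 885, 968 and 796 FPKM with H2O2, against 1452, 1419 and 1175 FPKM in control. Every H2O2 library lay below the lowest control library, at a log2 fold change of -0.61 ± 0.10 (limma adjusted p = 0.039). The group means of this gene were 489 ± 41.4 FPKM with NaCl and 654 ± 51.4 FPKM with sorbitol (SD, n = 3), so that it was lowest with NaCl.

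The higher gene with the highest level, c24553_g2, was at 210, 220 and 217 FPKM in H2O2 libraries, against 176, 175 and 175 FPKM in control libraries. The control libraries were almost equal, and a 1.23-fold difference of means passed the test (log2 fold change 0.30 ± 0.05, limma adjusted p = 0.049). It was lower than control with both other treatments, at 105 ± 2.97 FPKM with NaCl and 147 ± 2.88 FPKM with sorbitol. The second, c25273_g1, was at 73.4, 75.8 and 70.1 FPKM with H2O2, against 53.2, 51.3 and 54.9 FPKM in control. The groups did not overlap, and the log2 fold change was 0.45 ± 0.08 (limma adjusted p = 0.036). Its level with sorbitol, 73.5 ± 4.22 FPKM, was close to that with H2O2, and with NaCl it was 102 ± 7.21 FPKM. With only the 6 libraries fitted, these 4 genes had limma adjusted p = 0.18 to 0.21. Over 23 alternatives their adjusted p ran from 0.029 to 0.43.

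The other 11 called genes of 20 FPKM or more, numbered by level among the 59, were 4 lower and 7 higher. Gene 6 had the largest change of these, a log2 fold change of -0.94 ± 0.13 (limma adjusted p = 0.019). It was at 74.2, 63.7 and 50.7 FPKM with H2O2, against 109, 123 and 128 FPKM in control, and at 1382 ± 110 FPKM with NaCl and 519 ± 69.4 FPKM with sorbitol. Gene 4 and gene 11 also fell with H2O2 and lay above control with NaCl and sorbitol. Gene 4 was at 229, 263 and 189 FPKM with H2O2, against 356, 349 and 350 FPKM in control, 602 ± 62.0 FPKM with NaCl and 479 ± 29.8 FPKM with sorbitol. Gene 11 was at 25.88, 28.97 and 24.4 FPKM with H2O2, against 42.64, 41.74 and 39.99 FPKM in control, and 67.2 ± 3.45 FPKM with NaCl and 52.1 ± 2.25 FPKM with sorbitol. Genes 4 and 11 had H2O2 log2 fold changes of -0.64 and -0.63.

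Gene 13 showed the opposite order. It was at 35.9, 41.6 and 33.9 FPKM with H2O2, against 19.0, 17.6 and 23.1 FPKM in control, with a log2 fold change of 0.87 ± 0.13 (limma adjusted p = 0.027), the largest rise at this level. With NaCl it was at 7.20 ± 0.606 FPKM and with sorbitol at 14.3 ± 1.74 FPKM, both below control. Other called genes moved in 1 direction with all 3 treatments. Gene 3 was at 586 ± 33.3 FPKM with H2O2, 607 ± 75.4 FPKM with NaCl and 602 ± 34.0 FPKM with sorbitol, against 871 ± 48.9 FPKM in control. Of the 59 genes, 48 also passed against control with NaCl and 51 with sorbitol, in either direction, where 45.0% and 17.4% of all genes tested passed. The control libraries are shared by the 3 treatments, so these values and counts are set side by side without a test of their likeness. The remaining 7 of the 15 were 1 lower gene (number 3, log2 fold change -0.57) and 6 higher genes, with log2 fold changes between 0.46 and 0.77.

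**Figure D2:**
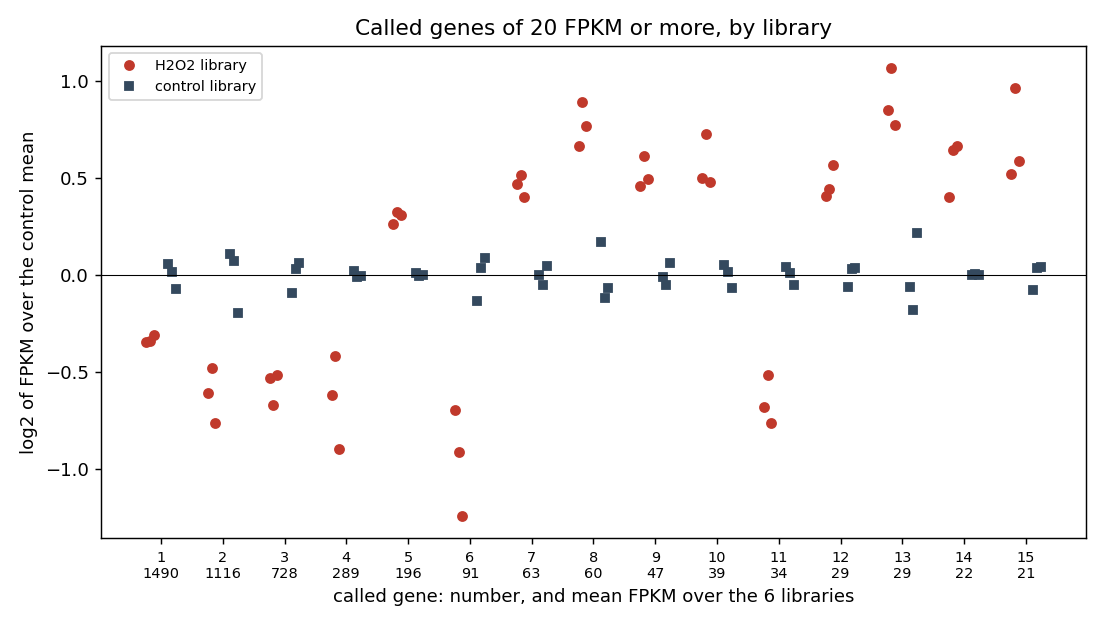
Each column is 1 of the 15 called genes of 20 FPKM or more, with its number and mean FPKM over the 6 libraries; points are single libraries (red circles H2O2, dark squares control) as log2 of FPKM over the control mean. In every gene the 3 H2O2 libraries lie on 1 side of the 3 control libraries, and the H2O2 points of genes 4 and 6 are the most widely spread among the lower genes.

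Below 20 FPKM, 44 genes were called, 11 higher and 33 lower, and 40 of these differed by at least 1 log2. A gene at 0 in all libraries of 1 group could enter the test only through the group where it is high, so that it had to differ, and this holds for 16 of the lower and 4 of the higher genes. With only genes above 0 in all 6 libraries tested, 36 genes of any level were called, 11 higher and 25 lower. In the 16 lower genes all 3 H2O2 libraries were listed at 0, with control levels of a few FPKM, and no fold is given for them. The one with the highest level was at 7.86, 8.64 and 10.1 FPKM in control libraries and was also at 0 in every sorbitol library, while NaCl libraries 1, 2 and 3 had 1.79, 0 and 2.68 FPKM. This gene, which entered the test through its control level alone, is the 1 gene called with 12 and with 6 libraries fitted. Of the 16 genes, 12 were at 0 in all 9 treated libraries, those of NaCl and sorbitol included, so that they were present in the control libraries alone. The comparisons share those control libraries, so a response common to the treatments and a deviation of the control libraries cannot be told apart. In the 4 higher genes all control libraries were listed at 0. One of these was at 6.56, 17.54 and 30.0 FPKM with H2O2 and was also present with NaCl and sorbitol, at 10.6 ± 3.91 and 9.24 ± 4.64 FPKM. The other 3 were listed in H2O2 libraries alone, and the highest of them had 10.21, 5.45 and 2.58 FPKM.

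The remaining 24 called genes below 20 FPKM were above 0 in at least 1 library of each group, 7 higher and 17 lower. The lower ones had a median log2 fold change of -1.83. Some of them were under 1 FPKM in every H2O2 library, such as gene 33 at 0.56, 0.3 and 0.36 FPKM. Those genes entered the test through the control libraries alone and had to be lower, so the filter partly sets this median and split. Testing only genes above 0 in all 6 libraries does not remove gene 33. Of the 17 lower genes, 15 had a mean under 0.5 FPKM with sorbitol. Gene 24, the highest of these 15, was at 4.20, 4.00 and 1.52 FPKM with H2O2, against 11.83, 12.64 and 15.97 FPKM in control. With sorbitol it was at 0.24, 0.29 and 0.57 FPKM, and with NaCl at 11.18, 19.25 and 9.83 FPKM. Among the higher ones gene 16 was at 23.17, 30.45 and 19.73 FPKM with H2O2, against 10.45, 10.28 and 12.89 FPKM in control (log2 fold change 1.04 ± 0.15, limma adjusted p = 0.023). In the whole table, 70 genes had at least 1 FPKM in every control library and 0 in every H2O2 library, and 22 had the reverse. Against the same control libraries the counts were 88 and 51 with NaCl and 124 and 47 with sorbitol, so more genes at 0 with treatment was not particular to H2O2. The H2O2 libraries had a lower relative depth than control, as given above, though H2O2 library 3 (0.9495) was close to control library 2 (0.9561). These 2 libraries listed 37740 and 41096 genes above 0. The part of relative depth in the H2O2 counts was not tested. At 5 FPKM or more the counts were 2 and 1 with H2O2, 1 and 5 with NaCl, and 7 and 1 with sorbitol.

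The ID of a gene names the assembly component it belongs to, which can hold copies or fragments of related transcripts. Of all 82333 assembly IDs, 13656 belonged to components with more than 1 gene, and their number among the genes tested was not counted. Of the 59 called genes, 18 belonged to such components, 16 components in all. In 2 components 2 genes were called, both higher in one and both lower in the other. The 16 components held 26 other genes, of which 15 were tested. An unadjusted limma p under 0.05 was reached by 4 of the 15, where 13.5% of all genes tested reached it. Genes of 1 component can share reads, so their separate values are uncertain.

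The error of each gene set the size of estimate that could pass. At the median standard error, an estimated difference had to reach 1.71 log2 to pass in the class under 5 FPKM, by 0.95 log2 from 5 to under 20 FPKM, by 0.66 log2 from 20 to under 100 FPKM and by 0.50 log2 (1.42-fold) at 100 FPKM or more. The median half-width of the 95% interval of the log2 fold change fell along the same classes and was 0.67, 0.38, 0.26 and 0.20. The spread between replicates narrowed with level in both groups. The median SD of log2(FPKM + 1) was 0.34 in H2O2 and 0.32 in control under 5 FPKM, and 0.12 in H2O2 and 0.081 in control at 100 FPKM or more. These sizes belong to the unadjusted p of 0.000135 at which the adjusted threshold lay in the fit of 12 libraries, and they move with the number of calls. They are sizes of estimates, and a true change of such a size can be missed or a smaller one can pass.

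The intervals also bound the change of genes that did not pass. In 6027 of the 6182 genes of 20 FPKM or more (97.5%), the 95% interval lay wholly within 1 log2 of control, which is a 2-fold change in either direction. With only the 6 libraries fitted the number was 6020, and without single libraries it ran from 5950 to 6036. By 2 one-sided limma tests at that bound, Benjamini-Hochberg adjusted over all genes, 6052 passed. Within 0.5 log2, a 1.41-fold change, lay the intervals of 4382 genes (70.9%), and 4008 passed the adjusted tests at that bound. By class, the share of intervals within 1 log2 was 49.8% under 5 FPKM, 89.9% from 5 to under 20 FPKM, 97.4% from 20 to under 100 FPKM and 97.9% at 100 FPKM or more. Under 5 FPKM the log2(FPKM + 1) scale compresses changes, so the share there overstates how well levels are bounded.

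The fit gave each gene an error estimate shared by all groups. Correlations within groups were 0.966 to 0.974 for NaCl and 0.970 to 0.972 for sorbitol, against 0.948 to 0.959 for H2O2. The part of this difference in the counts that follow was not tested. Against the same controls, added NaCl and sorbitol moved far more genes of 20 FPKM or more than H2O2 did. NaCl changed 63.0% of them and sorbitol 28.4%, against 0.243% with H2O2. Over all genes tested the shares called were 45.0% with NaCl and 17.4% with sorbitol. Intervals within 1 log2 were found for 70.1% of these abundant genes with NaCl and 90.2% with sorbitol, and differences of at least 1 log2 in 1004 genes with NaCl, 203 with sorbitol and 19 with H2O2 (20 without H2O2 library 1). Set directly against each other, levels differed between H2O2 and NaCl in 9138 of all genes tested (42.1%) and between H2O2 and sorbitol in 2967 (13.7%), by the same limma fit.

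**Figure D3:**
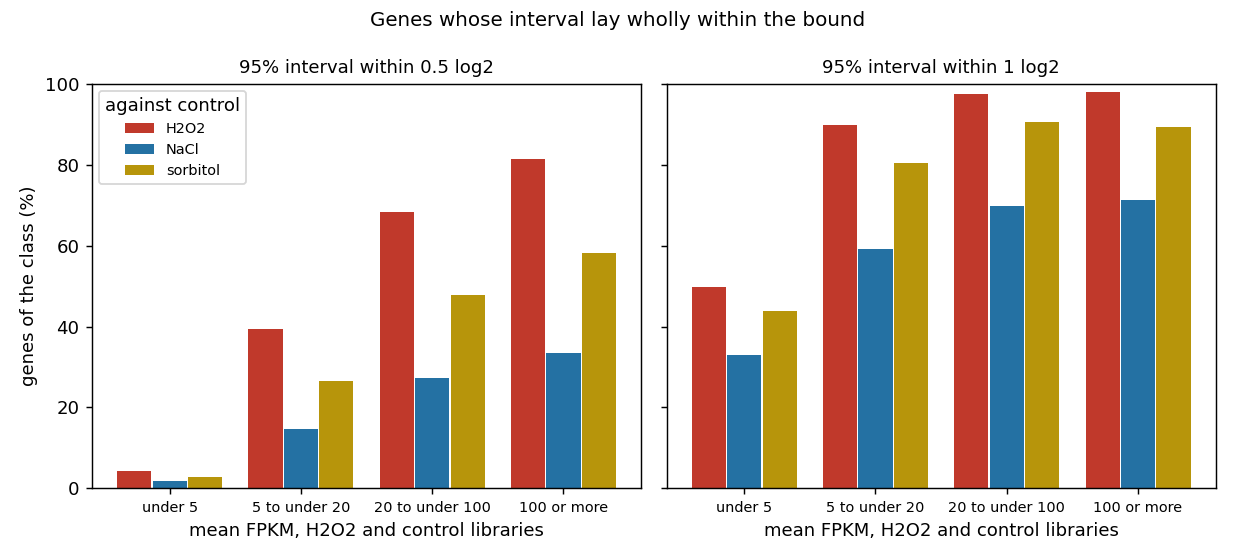
Bars give the share of genes (%) in 4 classes of mean FPKM whose 95% interval of the log2 fold change against control lay wholly within 0.5 log2 (left) or 1 log2 (right), for H2O2 (red), NaCl (blue) and sorbitol (yellow). At 100 FPKM or more 81.4% of genes lay within 0.5 log2 with H2O2, 33.4% with NaCl and 58.2% with sorbitol.

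The most abundant transcripts were ranked by their mean over both groups. The gene of rank 1 was at 31401, 28164 and 23280 FPKM with H2O2, against 33483, 34365 and 26627 FPKM in control. The ranges overlapped, and the log2 fold change of -0.19 ± 0.15 did not pass (limma adjusted p = 0.60). The gene of rank 3 was at 17932, 17815 and 17950 FPKM with H2O2, against 18573, 18406 and 19773 FPKM in control. Here the groups did not overlap, yet the log2 fold change was -0.08, with a 95% interval of -0.21 to 0.05. The gene of rank 4 had the widest interval of the 10 most abundant. It was at 13104, 13140 and 8061 FPKM with H2O2, against 17649, 18568 and 12799 FPKM in control, a log2 fold change of -0.53 with an interval of -1.12 to 0.06. Library 3 was the lowest of its group in both groups for ranks 1, 2, 4 and 12, and the intervals do not pair libraries by number. With NaCl the gene of rank 4 was at 3345, 2091 and 1576 FPKM, and with sorbitol at 4318, 2987 and 4057 FPKM.

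The gene of rank 8 was at 6992, 7220 and 7308 FPKM with H2O2, against 6704, 6787 and 6663 FPKM in control, a log2 fold change of 0.09 with an interval of -0.02 to 0.21. The groups did not overlap here either. The gene of rank 7 was at 6266, 8421 and 9448 FPKM with H2O2, against 5915, 6195 and 7804 FPKM in control, 0.27 with an interval of -0.08 to 0.61. Of the 10 most abundant genes 9 had intervals within 1 log2, as had 97 of the 100 most abundant. Of the 100 highest genes of the H2O2 group and the 100 highest of the control group, 92 were the same.

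None of the 100 most abundant genes (0) passed limma's adjusted test, but their differences leaned downward. An unadjusted p under 0.05 was reached by 24, of which 23 were lower and 1 higher with H2O2. It was reached by 13.5% of all genes tested and by 25.0% of those of 100 FPKM or more, where 169 were higher and 130 lower. The number of 24 is thus near the share at this level, and the direction differs. Groups did not overlap in 39 of the 100, 36 lower and 3 higher, where 19.4% of all genes tested had groups that did not overlap (14.3% higher, 5.04% lower). The share without overlap grew with level, at 17.3%, 18.2%, 22.3% and 27.6% in the classes from under 5 FPKM to 100 FPKM or more. At an unadjusted p under 0.05, 26 of the 100 were lower and 0 higher under median-ratio scaling, and 14 were lower and 3 higher with equal sums. More of these genes were lower than higher under each of the 3 scalings, whereas the balance of all genes turned with the scaling. Without control library 1 the count at that p was 0 higher and 13 lower, without control library 2 it was 1 higher and 15 lower, and without H2O2 library 1, 2 or 3 it was 3 higher and 18 lower, 2 higher and 16 lower, or 2 higher and 18 lower. Without control library 3 it was 2 higher and 18 lower. The median log2 fold change of the 100 genes was -0.075 as deposited, -0.18 under median-ratio scaling and -0.044 with equal sums. Neither scaling shifted it far upward, so they could hardly have turned the balance of these genes. The 100 genes held 39.5% ± 0.59 of the summed FPKM in H2O2 libraries and 41.8% ± 0.60 in control libraries (SD, n = 3). Without H2O2 library 1 the mean share with H2O2 was 39.2%.

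**Figure D4:**
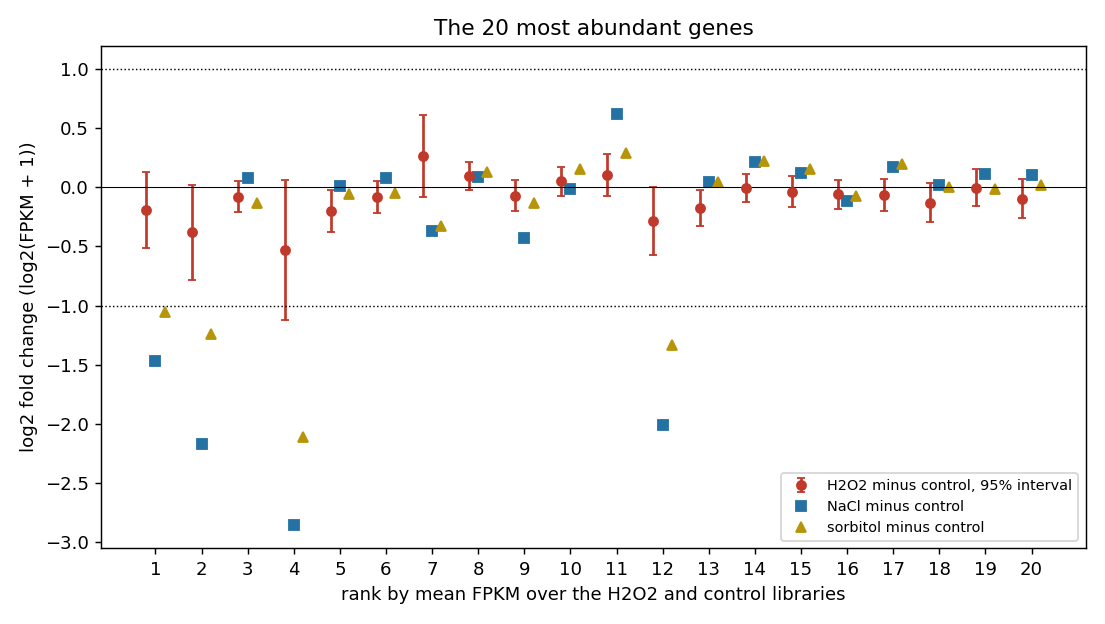
Log2 fold changes against control of the 20 genes with the highest mean FPKM over the H2O2 and control libraries, for H2O2 with 95% limma intervals (red), NaCl (blue squares) and sorbitol (yellow triangles); dotted lines mark 1 log2. The H2O2 interval of rank 4 is the only one of the 20 that reaches beyond 1 log2, while NaCl and sorbitol lie below -1 for ranks 1, 2, 4 and 12.

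Large mean differences among abundant genes were uneven between libraries. A mean difference of at least 1 log2 was found in 19 of the 6182 genes of 20 FPKM or more, 12 higher and 7 lower. The level is a mean over both groups, so a gene can reach 20 FPKM only through libraries where it is high. This partly sets these counts. One of the 19 was at 3, 2.03 and 116 FPKM with H2O2, against a control mean of 5.26 FPKM. Of the 19 genes, 0 passed limma's adjusted test. An unadjusted limma p under 0.05 was reached by 15, and by 18.8% of all genes of 20 FPKM or more. The 19 were picked by the size of their difference, which by itself raises the count at that p. In 12 of the 19 the highest library of a group was at least 3 times its lowest, a spread that was not counted over all genes. In 6 the groups did not overlap, as in 23.3% of all genes of 20 FPKM or more. Without H2O2 library 1 the count over the same 6182 genes was 20, of which 9 were higher and 11 lower, and 12 of them were among the 19. The most negative log2 fold change, -1.93 ± 0.36 (SE), missed the threshold (limma adjusted p = 0.057). That gene was at 27.3, 46.3 and 16.1 FPKM with H2O2, against 110, 86.1 and 131 FPKM in control, and the groups did not overlap. It was at 2.58, 1.36 and 1.81 FPKM with sorbitol and at 104, 172 and 71.5 FPKM with NaCl.

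Of the 19 genes, 5 of the 6 at 100 FPKM or more belonged to a set that was high in H2O2 library 1. Genes at least 5 times higher in 1 library than in the highest of the other 11, and with 20 FPKM or more in at least 1 of those 11, numbered 7 for H2O2 library 1 and 0 for each other library. This rule was chosen after the values were seen. Its floor of 20 FPKM leaves out the gene of the 19 at 116 FPKM in H2O2 library 3. The highest value of that gene elsewhere was 13.7 FPKM, in control library 2. The most abundant of the 7 was at 9566, 613 and 224 FPKM in H2O2 libraries 1, 2 and 3, against 638, 702 and 663 FPKM in control. The second was at 4909, 433 and 211 FPKM with H2O2, against 283, 211 and 233 FPKM in control. The sixth was at 1086, 58.1 and 27.2 FPKM with H2O2, against 25.2, 23.0 and 29.7 FPKM in control, 41.9 times the control mean in library 1. In library 1 the 7 genes stood at 13.7 to 41.9 times their control mean, in library 2 at 0.638 to 2.46 times and in library 3 at 0.295 to 1.09 times. Together they held 2.37% of the summed FPKM of library 1, and between 0.0569% and 0.163% of that of the other 11 libraries. They lie in 7 different components, and their limma adjusted p was 0.34 to 0.85. The level of these genes differed between libraries of 1 group far more than between groups, so no H2O2 change can be given for them.

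**Figure D5:**
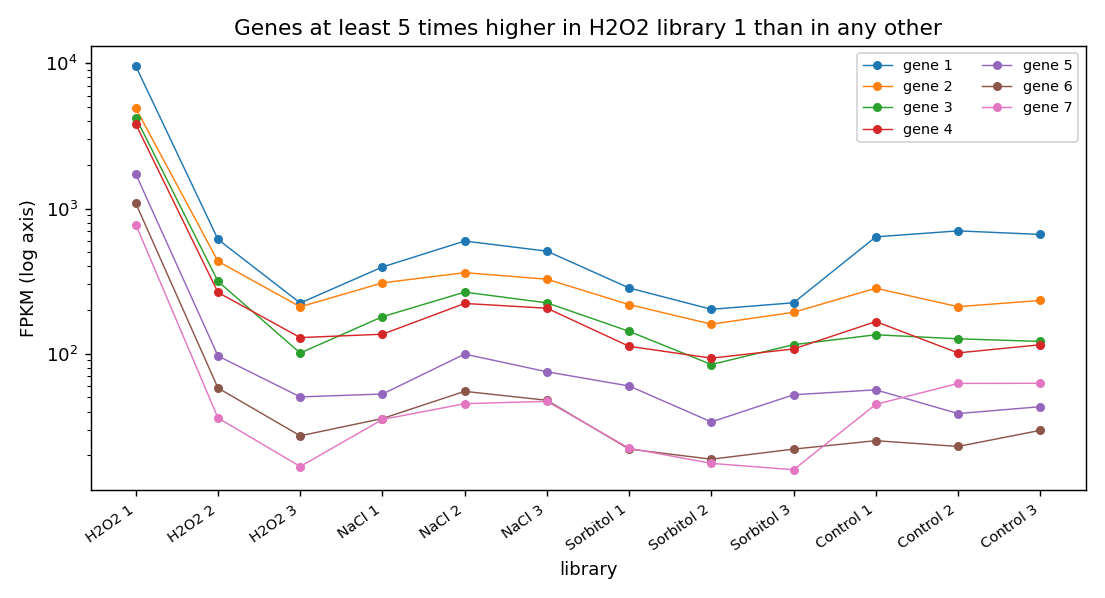
FPKM (log axis) in each of the 12 libraries of the 7 genes that were at least 5 times higher in H2O2 library 1 than in any other library; lines join the values of 1 gene. H2O2 library 1 lies at 776 to 9566 FPKM, above all other libraries in each gene.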

How the data were processed

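RNA was extracted with Trizol, per the labels' protocols. The authors used cutadapt, an adapter trimmer, and RSEM, which estimates transcript abundance, per the submitters' processing notes. Their versions and the transcript assembly are not named by any source used here. The unit of the deposited values was taken as FPKM. No source states it, and it was inferred from values with 2 decimals whose sums run from 1065190 to 1133348 per library. They hold no absolute depth, and relative depth was estimated from the most frequent ratio of low values (0.2 to 1.2 FPKM, window 0.05 log2). That ratio held for only 12.2% to 26.8% of the low values compared, depending on the library.

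Values were analysed as log2(FPKM + 1) with limma 3.58.1 in R 4.3.3 (mean-variance trend, 12 libraries, group as the only term). Tables were handled with Python 3.11.15, pandas 2.3.3, numpy 2.4.6 and scipy 1.17.1, plots with matplotlib 3.10.9. Genes were classed by mean FPKM over the 6 libraries, and 95% intervals are limma's for single genes. Named IDs are the called genes with groups that do not overlap and the highest mean FPKM over the 6 libraries, 2 higher and 2 lower. The comparison, the classes and the alternatives were chosen with earlier results of these data known. Same-numbered libraries were not taken as pairs. No 2 libraries shared more than 3.64% of equal values.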

Additional observations from a re-analysis of the deposited data

How the results depend on the processing

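The count of genes changed by H2O2, 59 in the fit of 12 libraries, moved with most of the 25 settings tried. It was 3 with only the 6 libraries fitted, 39 with the 9 libraries left without NaCl, 17 with no filter, 25 with a filter at 5 FPKM, 30 with the filter over all 12 libraries, 29 with a pseudocount of 0.1, 158 without the mean-variance trend and 0 at an adjusted p of 0.01. With only genes above 0 in all 6 libraries, a setting chosen after the data were seen, it was 36. Leaving out each library gave 4 to 91. A stricter adjusted p lets fewer genes pass. The cause was not tested for the other settings. Robust empirical Bayes gave 46. Median-ratio scaling gave 68, of which 12 were higher and 56 lower, and equal sums gave 62, of which 26 were higher and 36 lower, where the values as deposited gave 20 higher and 39 lower.

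The number of genes of 20 FPKM or more with intervals within 1 log2 stayed between 5873 (99% interval) and 6036 over 24 alternatives. The 4 named genes missed the threshold in 16 to 22 of 23 alternatives. The NaCl count ran from 6845 to 10281 over 23 alternatives. The sorbitol count was 1813 at an adjusted p of 0.01 and 2400 to 4424 with each library left out, 2498 without control library 2 and 2400 without sorbitol library 3.

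Deviations of same-numbered H2O2 and control libraries from their group means had correlations of -0.066 to 0.056 in 3 pairs. Of the 6 libraries, 2 correlated best with their own number. Such a summary over many genes cannot show that single genes share no deviation. Library 3 was the lowest of its group in both groups for the genes of rank 1, 2, 4 and 12. Adding the replicate block to the fit left 4 genes, and the 4 named genes had adjusted p values of 0.079 to 0.12. FPKM values without absolute depth leave the counting error of low genes unknown.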
